A study of Mus musculus with 12 samples.

Results

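The 36 genes described here lie in the nuclear genome. They encode subunits of complexes II to V of the mitochondrial oxidative phosphorylation system, or proteins that act with them. The genes were taken from a fixed list by gene symbol: 4 genes of complex II, 9 of complex III, cytochrome c, 6 of complex IV and 16 of complex V, out of 55401 genes in the count tables. Cox7a2l, which helps to join complexes III and IV, is counted with complex IV, and the inhibitor gene Atpif1 with complex V. The isoform families COX4, 6a, 6b, 7a1, 7a2 and 8 were left out of that list. All 36 genes passed the filter on low counts that left 16540 genes, and none had a count of 0 in any library (lowest count 596, highest 63864). They lie on 16 chromosomes.

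The electrons of succinate enter the chain at complex II, succinate dehydrogenase, which needs no mitochondrially encoded subunit. Complex III passes electrons from ubiquinol to the mobile carrier cytochrome c, and complex IV passes them on to oxygen. Complex V, the ATP synthase, uses the proton gradient that complexes I, III and IV build, with a soluble F1 head and a membrane-embedded Fo part. Beige adipocytes, which form in subcutaneous fat in the cold, hold many mitochondria, and UCP1 in their inner membrane releases the gradient as heat.

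RNA was sequenced from subcutaneous white adipose tissue (scWAT) of 12 female mice, 16 weeks old when the experiment began, with 3 mice in each of 4 groups. The genotypes were Jmjd1a +/+ (wild type) and Jmjd1a HY/HY. After an acclimation of 1 week at 30°C, the animals of each genotype either stayed at 30°C (thermoneutral) or were moved to 8°C (chronic cold) for a further 1 week. The HY allele carries the substitution H1122Y, which leaves JMJD1A, a demethylase of histone H3 lysine 9, without its enzyme activity. It was made in C57BL/6J eggs with CRISPR-Cas9, is present in every cell, and the females came from a single founder line. These were whole-tissue samples, so fewer cells of a type and less RNA per cell cannot be told apart.

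The libraries held 13592629 to 26352081 read pairs counted on the sense strand, and every library from 8°C was smaller than every library from 30°C. Levels are given as CPM, counts relative to the library size after scaling by TMM, a factor that makes most genes comparable between libraries. All 6 adipocyte markers had counts in every library, from 1034 for Lep upwards. The thermogenic markers summed to 40.6 to 138 CPM at 30°C in +/+ mice, 40.9 to 156 CPM at 30°C in HY/HY mice, 7187 to 8162 CPM at 8°C in +/+ mice and 394 to 1446 CPM at 8°C in HY/HY mice. Of these, Ucp1 at 8°C was between 5042 and 6048 CPM in +/+ and between 211 and 903 CPM in HY/HY mice. The RNA of Kdm3a, the gene that encodes JMJD1A, was between 35.6 and 61.6 CPM in all libraries, and its level does not check a point mutation. One +/+ library from 30°C (replicate 2) held 1271 CPM of 8 skeletal muscle markers, against 7.08 to 26.1 CPM in the other 11 libraries. Of the 8 muscle markers, 6 were called lower with cold in +/+ mice. In that library Acta1 was at 284.7 CPM, Ckm at 196.7 CPM and Myh4 at 275.1 CPM.

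Cold raised most of the 36 transcripts in +/+ mice. Their summed level was 8616, 9113 and 12232 CPM in the +/+ libraries at 30°C and 28102, 30011 and 28558 CPM at 8°C. In HY/HY mice the sums were 9535, 11279 and 13870 CPM at 30°C and 14703, 15898 and 15291 CPM at 8°C. The cold libraries of HY/HY mice thus lay above all 6 libraries from 30°C and below all 3 cold libraries of +/+ mice.

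**Figure D1:**
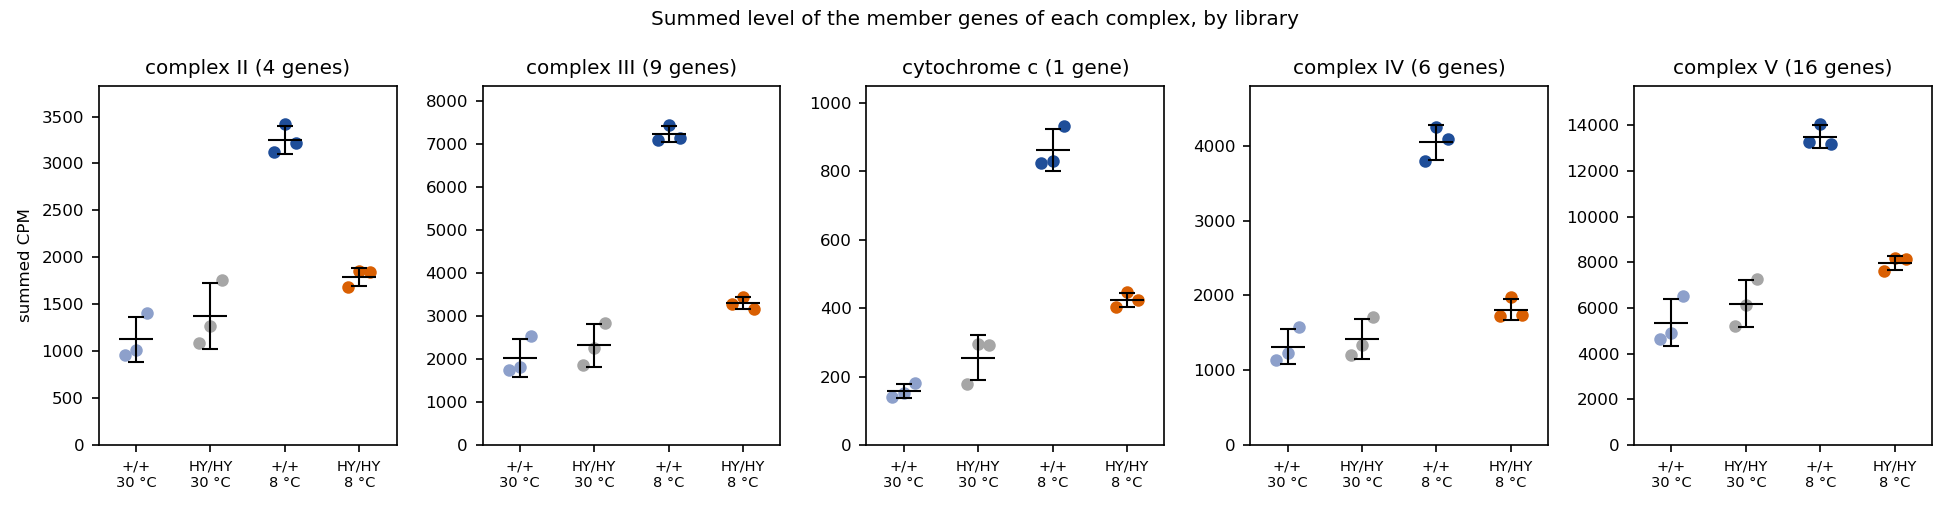
Summed CPM (vertical axis, from 0) of the member genes of complex II, complex III, cytochrome c, complex IV and complex V in each of the 12 libraries, by genotype and temperature (horizontal axis); points are libraries, the long dash is the mean and bars are the SD of 3. In every panel the 3 +/+ libraries from 8°C are the highest; for complex III they lie between 7106 and 7448 CPM, against 3164 to 3447 CPM in HY/HY mice at 8°C.

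A gene was called here when its p, adjusted over all 16540 genes by Benjamini-Hochberg in edgeR's quasi-likelihood test, was under 0.05 and its fold change was above 1.5 or below 0.67. By this rule 30 of the 36 members rose with cold in +/+ mice, 1 fell and 5 were not called, while 10.3% of all genes tested rose and 6.84% fell. The median log2 fold change of the members was 1.52, and that of all genes was -0.07. In 31 members every +/+ library from 8°C was above every +/+ library from 30°C (20.7% of all genes), and in 2 members, Atp5g1 and Atpif1, every one was below (22.7% of all genes). Without the +/+ library that held muscle RNA, 31 members were still called, while 1356 of all genes rose and 535 fell. Beside this response, 2 of 6 adipocyte markers (Cfd and Lep) were called lower with cold in +/+ mice. Of the 6, 3 had positive and 3 negative log2 changes, from -1.38 to 0.75. Their sums overlapped, with 21573 to 40834 CPM at 30°C and 27529 to 34243 CPM at 8°C. Of 6 mammary epithelium markers 1 was called lower, and these markers summed to 2045 to 3678 CPM at 30°C and 1369 to 1511 CPM at 8°C. The part of both sets of markers in the result was not tested. With library totals in place of TMM, 1057 of all genes rose and 4080 fell with cold in +/+ mice, against 1707 and 1132 with TMM, while 30 members rose and 2 fell, Atpif1 and Atp5g1.

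In HY/HY mice 0 of the 36 members were called in either direction with cold, where 0.181% of all genes rose and 0.0665% fell. At an unadjusted p under 0.05 there were 13 members, and no count over all genes was made at that limit. DESeq2 called 2 members, both higher, and 216 of all genes higher and 91 lower. The median log2 change of the members was 0.36, and the lowest adjusted p in edgeR's quasi-likelihood test was 0.129, that of Cycs. Without replicate 3 of HY/HY at 30°C, 9 members rose, while 461 of 16926 genes rose and 201 fell. The groups still did not overlap in 18 members, whose 3 HY/HY libraries from 8°C were all above those from 30°C (9.33% of all genes). Among the HY/HY libraries at 30°C replicate 3 had the highest level of 32 members. In that library the adipocyte markers summed to 46228 CPM against 28232 and 20305 CPM in the other 2, the mammary epithelium markers to 526 CPM against 1398 and 1464 CPM, and mtDNA genes took 16.8% of counts against 9.32% and 9.76%, and the part of these in the result was not tested. Among the +/+ libraries at 30°C it was also replicate 3, for 34 members, with adipocyte markers at 40834 CPM against 21573 and 26319 CPM. At 30°C the median coefficient of variation over members was 21.0% in +/+ and 19.8% in HY/HY mice, against 5.81% and 6.19% at 8°C.

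At 8°C the transcripts were lower in HY/HY than in +/+ mice. The test called 27 of 36 members lower and 0 higher (4.34% of all genes lower, 1.51% higher), with a median log2 difference of -1.02 against 0.01 over all genes. In 33 members all 3 HY/HY libraries were below all 3 +/+ libraries (19.0% of all genes). For 24 members, all 4 of complex II and 7 of 9 of complex III among them, the cold HY/HY libraries lay above every +/+ library at 30°C and below every +/+ library at 8°C, an order seen in 4.37% of all genes. Beside this difference, the 6 macrophage markers summed to 226 to 304 CPM in HY/HY and 133 to 153 CPM in +/+ mice at 8°C, with 2 of 6 called higher in HY/HY mice. All 6 adipocyte markers had positive log2 differences, from 0.11 to 1.99, and 1 of 6, Lep, was called higher in HY/HY mice. The part of these markers in the result was not tested. With library totals 535 of all genes were higher and 478 lower in HY/HY mice, against 249 and 718 with TMM, and 27 members were lower and 0 higher.

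At 30°C edgeR's test called 0 of 36 members between the genotypes (0.562% of all genes were higher and 0.435% lower in HY/HY mice), with 5 at an unadjusted p under 0.05. No count over all genes was made at that limit. The 2 lowest adjusted p in edgeR's quasi-likelihood test were 0.0712 for Atpif1, at a log2 difference of -0.65, and 0.0846 for Cycs, at 0.70. DESeq2 called 1 member higher and 1 lower, and 357 of all 16540 genes higher and 307 lower. Only Cox7a2l and Atpif1 had all HY/HY libraries below all +/+ libraries at 30°C (10.6% of all genes). The comparison at 30°C and the cold response of +/+ mice share the +/+ libraries at 30°C, as the comparison at 8°C and the cold response share those at 8°C.

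The cold responses of the genotypes were compared by their difference, the interaction term of the model, called at an adjusted p under 0.05 alone. The response was smaller in HY/HY mice for 22 of 36 members, against 2.07% of all genes, and larger for 0. The median of the difference over members was -1.12 on the log2 scale. This count rests on many libraries: it was 4 without +/+ replicate 1 at 30°C, HY/HY replicate 1 at 8°C or HY/HY replicate 3 at 8°C, 5 to 8 without +/+ replicate 2 at 30°C, any +/+ replicate at 8°C or HY/HY replicate 2 at 8°C, and 11 without HY/HY replicate 2 at 30°C. The count lower over all genes, 342 of 16540 in the main fit, fell too. It was 64 to 81 in the fits with 4 members, 81 to 139 in those with 5 to 8, and 177 in that with 11. Leaving out 1 library kept the median over members between -1.3 and -1.02.

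**Figure D2:**
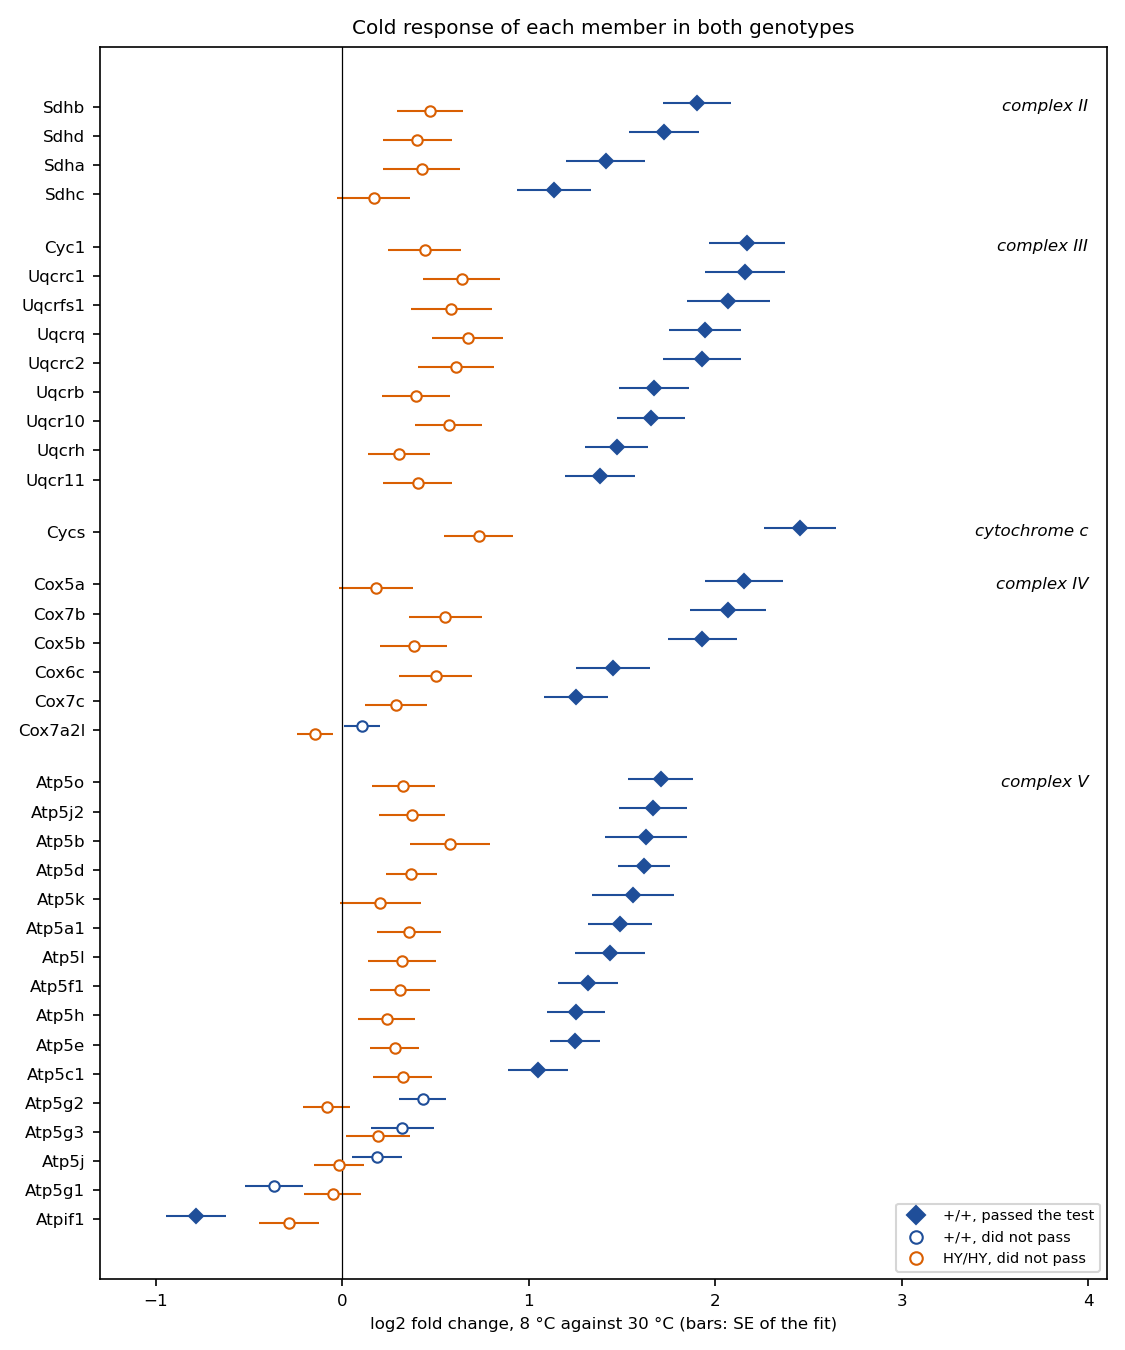
Log2 fold change between 8°C and 30°C (horizontal axis) of each of the 36 members, by complex, in +/+ mice (blue) and HY/HY mice (orange); bars are the standard error of the fit, and filled diamonds passed the test. In +/+ mice 31 members are filled, from -0.79 for Atpif1 to 2.45 for Cycs, and in HY/HY mice none is.

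In complex II all 4 genes rose in +/+ mice, by a median of 1.57 on the log2 scale, with 0.41 in HY/HY mice. Sdhb, the iron-sulfur subunit that carries electrons from the flavin to ubiquinone, was at 164, 171 and 245 CPM at 30°C and 718, 730 and 718 CPM at 8°C in +/+ mice, and at 190, 202 and 275 CPM and 302, 323 and 298 CPM in HY/HY mice. The 3 cold +/+ libraries were above the other 9. Its log2 fold change was 1.90 ± 0.18 (SE) in +/+ and 0.47 ± 0.18 in HY/HY mice, and the difference of -1.43 ± 0.25 had an adjusted p of 0.0170 in edgeR's quasi-likelihood test. Sdhd, a membrane anchor, rose by 1.73 in +/+ mice and had an interaction of -1.32, which also passed. The flavoprotein Sdha and the second anchor Sdhc rose by 1.41 and 1.14 in +/+ mice but were not called between the genotypes at 8°C, with log2 differences of -0.66 (adjusted p of 0.0796) and -0.67 (adjusted p of 0.0653) in edgeR's test, although their HY/HY libraries at 8°C were all below those of +/+ mice.

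Complex III had all 9 of its genes called higher with cold in +/+ mice and all 9 called lower in HY/HY than in +/+ mice at 8°C, with medians of 1.93 and -1.11. The interaction passed for 7 of 9. Cyc1, the cytochrome c1 haem protein, was at 165, 179 and 232 CPM at 30°C and 857, 906 and 830.5 CPM at 8°C in +/+ mice. In HY/HY mice it was at 184, 290 and 319 CPM and at 365, 376 and 336 CPM. The HY/HY groups thus came close to each other without overlapping, while the +/+ groups were far apart. Its cold response was 2.17 ± 0.20 in +/+ and 0.44 ± 0.20 in HY/HY mice, and the interaction of -1.73 ± 0.28 had an adjusted p of 0.0132 in edgeR's test.

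The other genes of complex III fall by role into the large core proteins, the Rieske protein and the small subunits. The core proteins Uqcrc1 and Uqcrc2 rose by 2.16 and 1.93 in +/+ mice, and Uqcrfs1, the Rieske iron-sulfur protein, by 2.07. Their interactions were -1.52, -1.32 and -1.49. Among the small subunits the responses in +/+ mice ran from 1.38 for Uqcr11 to 1.94 for Uqcrq. Uqcr10 and Uqcr11 were the pair whose interaction did not pass (adjusted p of 0.0503 and 0.0856 in edgeR's quasi-likelihood test).

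Cycs, the somatic cytochrome c that shuttles electrons from complex III to complex IV, had the largest log2 fold change of the 36 in +/+ mice. It was at 141, 151 and 180 CPM at 30°C and at 824, 828 and 931 CPM at 8°C in +/+ mice. The HY/HY libraries held 179, 296 and 291 CPM at 30°C and 403, 446 and 422 CPM at 8°C. Both genotypes separated by temperature without overlap, by 2.45 ± 0.19 in +/+ mice (adjusted p of 1.83e-05) and by 0.73 ± 0.18 in HY/HY mice (adjusted p of 0.129) in edgeR's quasi-likelihood test. The difference between these responses was -1.72 ± 0.26, with an adjusted p of 0.0113.

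In complex IV 5 of 6 genes rose with cold in +/+ mice and the same 5 were lower in HY/HY than in +/+ mice at 8°C. Cox5a, a subunit on the matrix side, was at 158, 176 and 191 CPM at 30°C and at 650, 912 and 775 CPM at 8°C in +/+ mice. It was at 169, 234 and 270 CPM at 30°C and at 238, 309 and 214 CPM at 8°C in HY/HY mice, so that the HY/HY groups overlapped. Its interaction, -1.97 ± 0.29 (adjusted p of 0.0113 in edgeR's test), was the largest in size of the 36 members. Cox5b, which binds zinc on the matrix side, and the small membrane subunit Cox7b followed with -1.55 and -1.51, while Cox6c and Cox7c rose in +/+ mice by 1.45 and 1.25 with interactions of -0.95 and -0.97 that did not pass.

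Cox7a2l, which helps to join complexes III and IV into supercomplexes, was the member of the complex IV list that was not called with cold. Its level was 152, 167 and 161 CPM at 30°C and 166, 177 and 173 CPM at 8°C in +/+ mice, and 137, 135 and 124 CPM and 122, 125 and 111 CPM in HY/HY mice. The temperatures differed little within each genotype, whereas all 6 HY/HY libraries were below all 6 +/+ libraries. Within 8°C alone 19.0% of all genes had this order and within 30°C alone 10.6%. No share over all genes was taken for the 6 against 6. The log2 difference between the genotypes was -0.53 ± 0.10 at 8°C (adjusted p of 0.00875 in edgeR's test), short of the 1.5-fold limit, and -0.28 ± 0.10 at 30°C (adjusted p of 0.162). With library totals in place of TMM the difference at 8°C was -0.39, with an adjusted p of 0.113 in edgeR's test.

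In complex V 11 of 16 genes rose in +/+ mice, 1 fell and 4 were not called, with a median of 1.29 against 0.30 in HY/HY mice. At 8°C 10 of 16 were lower in HY/HY mice, and the interaction passed for 9. Of the F1 head, the catalytic subunit gene Atp5b was at 1214, 1255 and 1825 CPM at 30°C and at 4400, 4812 and 4074 CPM at 8°C in +/+ mice. In HY/HY mice it was at 1412, 1690 and 2213 CPM at 30°C and at 2517, 2616 and 2789 CPM at 8°C. The cold HY/HY libraries were below all cold +/+ libraries, but the log2 difference of -0.75 ± 0.22 did not pass (adjusted p of 0.0589 in edgeR's test).

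The other F1 genes rose in +/+ mice by 1.49 for Atp5a1 (alpha), 1.05 for Atp5c1 (gamma), 1.62 for Atp5d (delta) and 1.25 for Atp5e (epsilon). Atp5d and Atp5e had interactions of -1.25 and -0.96 that passed, with standard errors of 0.19 each, and Atp5c1 had -0.73, which did not. Of the stalk, Atp5o, the subunit that confers oligomycin sensitivity, rose by 1.71, Atp5h (subunit d) by 1.25 and Atp5f1 (subunit b) by 1.32, and all 3 passed the interaction. Of the small membrane subunits, Atp5j2 (f), Atp5k (e) and Atp5l (g) rose by 1.67, 1.56 and 1.44, with interactions of -1.29, -1.36 and -1.12. Atp5j, coupling factor 6 of the stalk, changed little in any group: 204, 228 and 261 CPM at 30°C and 232, 275 and 281 CPM at 8°C in +/+ mice, and 231, 226 and 278 CPM and 229, 249 and 248 CPM in HY/HY mice.

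The c-ring of Fo is built from 1 mature protein that is encoded by 3 genes, Atp5g1, Atp5g2 and Atp5g3, and none of them was called with cold in +/+ mice. Atp5g1 (chr11:96072793-96075694) was at 58.6, 56.4 and 81.8 CPM at 30°C and at 44.2, 54.3 and 54.0 CPM at 8°C in +/+ mice, a log2 change of -0.37 ± 0.15 (adjusted p of 0.101 in edgeR's test). Atp5g2 (chr15:102662868-102671047) went from 101, 113 and 133 CPM to 146, 161 and 161 CPM, a log2 change of 0.43 ± 0.13 whose adjusted p of 0.0282 passed but whose fold did not reach 1.5. Atp5g3 (chr2:73908447-73912464) was at 374, 411 and 569 CPM at 30°C and 539, 592 and 560 CPM at 8°C in +/+ mice, with overlapping groups. With library totals in place of TMM these log2 changes were -0.69 for Atp5g1, called as a fall (adjusted p of 0.00151 in edgeR's test), 0.10 for Atp5g2 and -0.0034 for Atp5g3.

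Between the genotypes at 8°C, Atp5g2 was the c-ring gene that was called. It was at 109, 102 and 94.0 CPM in HY/HY mice, below all 3 +/+ libraries, a log2 difference of -0.62 ± 0.13 (adjusted p of 0.0141 in edgeR's quasi-likelihood test), and -0.47 with library totals, short of the fold limit. Atp5g3 was at 540, 616 and 667 CPM and Atp5g1 at 58.5, 52.6 and 63.3 CPM in the same HY/HY libraries, both overlapping with +/+ mice. As counted, without correction for repeated sequence, the 3 genes together summed to 729 to 807 CPM in +/+ and 707 to 824 CPM in HY/HY mice at 8°C.

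Atpif1 (chr4:132530555-132535450), which encodes the protein that inhibits ATP hydrolysis by complex V, was the member that fell. It was at 95.8, 115 and 81.6 CPM at 30°C and at 53.9, 56.0 and 59.3 CPM at 8°C in +/+ mice, a log2 change of -0.79 ± 0.16 (adjusted p of 0.00519 in edgeR's test). In HY/HY mice it was at 70.0, 69.8 and 46.1 CPM at 30°C and 50.8, 52.7 and 49.1 CPM at 8°C. The HY/HY libraries at 30°C already lay below those of +/+ mice, and their range overlapped with that of HY/HY mice at 8°C. The interaction of 0.50 ± 0.23 did not pass (adjusted p of 0.325 in edgeR's test).

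**Figure D3:**
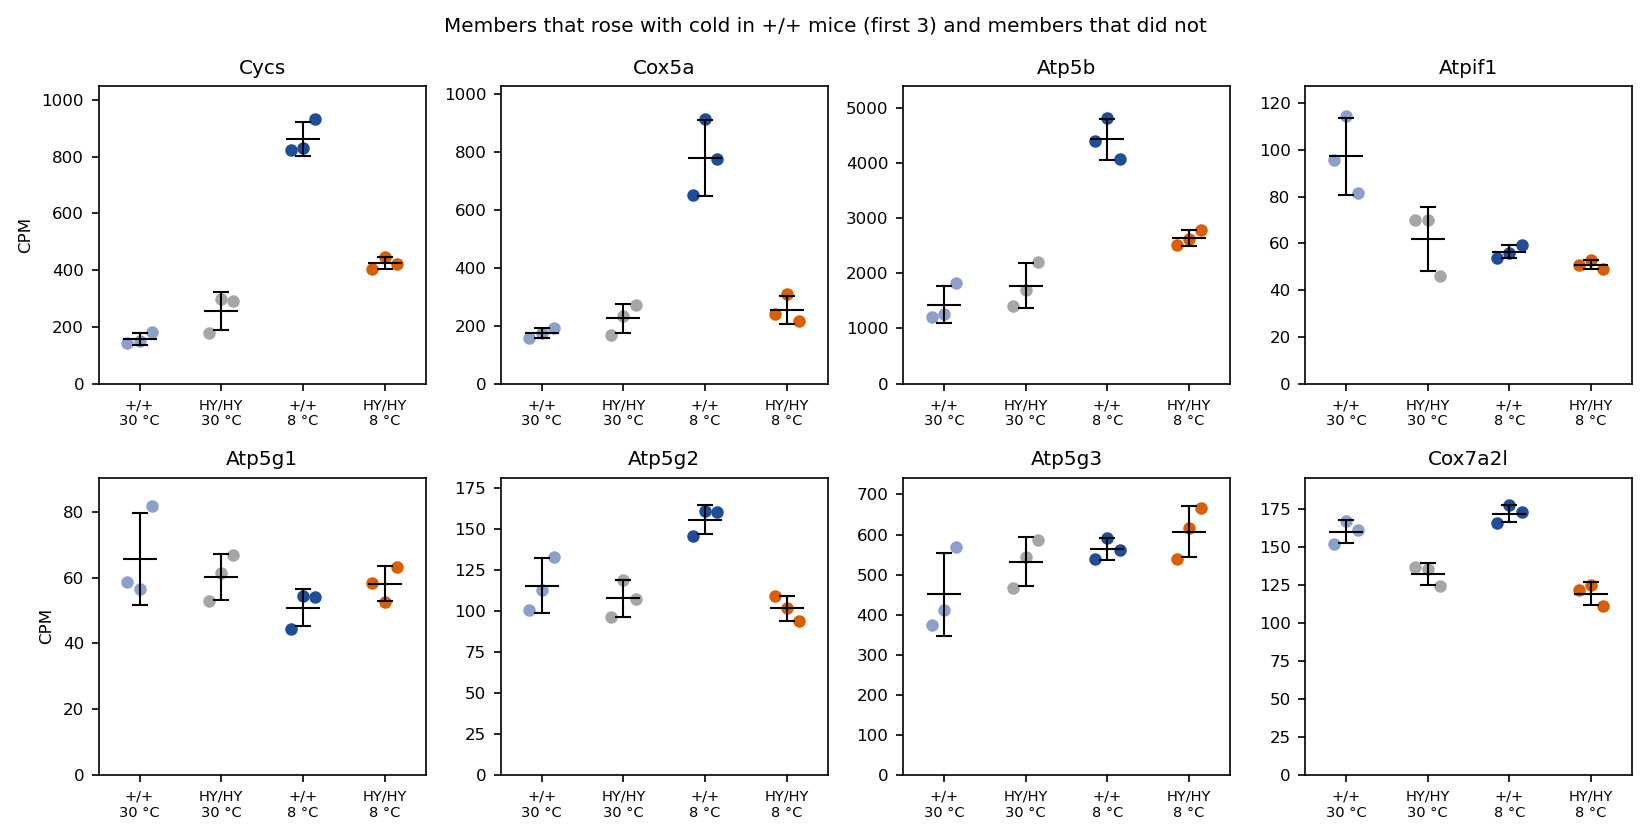
CPM (vertical axes, from 0) in each library of 3 members that rose with cold in +/+ mice (Cycs, Cox5a, Atp5b) and 5 that did not (Atpif1, Atp5g1, Atp5g2, Atp5g3, Cox7a2l), by genotype and temperature; the long dash is the mean and bars are the SD of 3. Cox5a at 8°C is 650 to 912 CPM in +/+ and 214 to 309 CPM in HY/HY mice, while Atp5g3 at 8°C is 539 to 592 CPM in +/+ and 540 to 667 CPM in HY/HY mice.

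Read pairs that align to several places were not counted, so the annotated mRNA of each member was searched for copies elsewhere in the genome. In 16 members no stretch of 100 bases, the summed length of a read pair, occurred again with at most 1 difference, and 8 had over 50% of such stretches repeated. Atp5g3 and Atpif1 had 0%, Atp5j 13.9%, Cox7a2l 54.8%, Atp5g1 85.7% and Atp5g2 100%. Levels of members with repeats, the last 3 among them, can be undercounted, and the part of this in their fold changes was not tested. Of the 16 members without a repeat, 14 rose with cold in +/+ mice (median 1.64), and of the 20 with any repeat, 16 rose (median 1.44). Of the 8 with over 50% repeated, 5 rose (median 1.25), and the 3 that did not were Cox7a2l, Atp5g1 and Atp5g2.

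Levels of different genes can be compared only per length. The length used was that of a single mRNA per gene in an older annotation, and no other length was tried. Per kilobase of mRNA the members with the highest means in +/+ mice at 30°C were Uqcrh, Atp5b and Cox6c at 752 ± 128, 747 ± 178 and 727 ± 181 CPM per kilobase (SD, n = 3), which do not differ beyond their spread. Atp5k and Atp5g3, at 653 ± 173 and 632 ± 145 CPM per kilobase, lay within that spread too. The 3 first named also had the highest means in both genotypes at 8°C, but in HY/HY mice at 30°C Cox6c ranked 5, behind Atp5k and Atp5g3. Cycs, with an mRNA of 3123 bases, ranked 36 of 36 in +/+ mice at 30°C, at 50.4 CPM per kilobase, and 30 at 8°C. Of its stretches of 100 bases 37.5% are repeated elsewhere, and of those of Cox6c 16.6%. Both can thus be undercounted, and no level per kilobase or rank was corrected for repeats. Atpif1 went from rank 22 at 30°C to rank 35 at 8°C in +/+ mice.

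**Figure D4:**
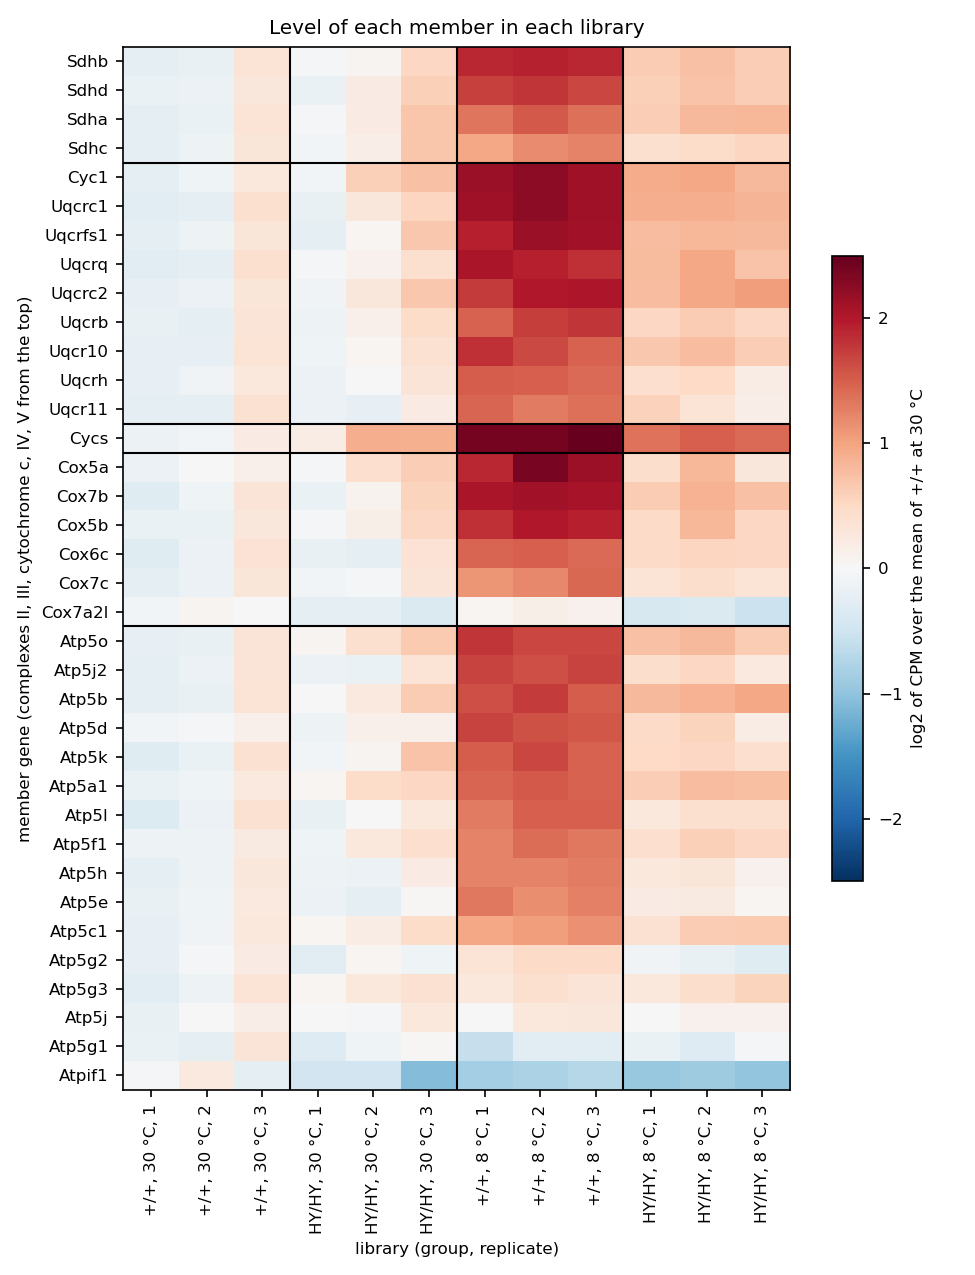
Level of each of the 36 members (rows, by complex and then by cold response) in each of the 12 libraries (columns), as the log2 of CPM over the gene's mean in +/+ mice at 30°C. The +/+ columns at 8°C are the darkest red in the rows of the 30 members that rose, while the rows of Cox7a2l, Atp5g1, Atp5g3, Atp5j and Atpif1 do not show this and that of Atp5g2 is only slightly redder there.

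To show the sequence around the start of genes that moved together and of those that did not, the promoters of 5 members follow, 5′ to 3′, from 250 bases before to 50 after the start (RefSeq, GRCm38.p6, the build of the count tables). Of the 36 members 29 had such a window. Capitals mark the letters GCGCATGCG (the core of sites for NRF1, an activator of respiratory chain genes), TCAAGGTCA (sites for the ERR receptors), CCGGAAG (ETS factors such as GABPA) and AAGATGGCG (YY1), searched on both strands. Cycs and Uqcr11 rose with cold in +/+ mice and hold the NRF1 letters, and Uqcr11 also holds those of ETS. Sdhd rose and holds those of ERR and ETS. Atp5g2 was not called with cold and also holds the NRF1 letters, and Atpif1 fell and holds none of the 4.
Cycs (chr6:50566520-50566819, minus strand): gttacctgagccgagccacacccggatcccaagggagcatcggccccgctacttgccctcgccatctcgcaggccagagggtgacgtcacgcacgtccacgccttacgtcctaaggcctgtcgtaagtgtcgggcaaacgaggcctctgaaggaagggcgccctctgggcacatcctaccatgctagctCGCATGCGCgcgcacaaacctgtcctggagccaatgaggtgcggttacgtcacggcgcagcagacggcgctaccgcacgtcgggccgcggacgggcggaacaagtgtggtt
Uqcr11 (chr10:80406772-80407071, minus strand): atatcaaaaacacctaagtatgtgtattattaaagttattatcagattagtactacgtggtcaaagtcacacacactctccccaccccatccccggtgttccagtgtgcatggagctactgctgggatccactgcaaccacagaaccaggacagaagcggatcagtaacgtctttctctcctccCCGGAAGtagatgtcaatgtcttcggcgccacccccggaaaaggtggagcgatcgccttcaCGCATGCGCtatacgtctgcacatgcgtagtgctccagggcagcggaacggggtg
Sdhd (chr9:50603800-50604099, minus strand): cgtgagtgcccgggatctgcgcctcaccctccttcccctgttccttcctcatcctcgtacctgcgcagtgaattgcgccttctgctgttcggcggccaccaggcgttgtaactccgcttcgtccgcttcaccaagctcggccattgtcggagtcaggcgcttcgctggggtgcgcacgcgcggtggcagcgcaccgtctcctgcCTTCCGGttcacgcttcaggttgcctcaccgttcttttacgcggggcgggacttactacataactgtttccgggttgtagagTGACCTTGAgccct
Atp5g2 (chr15:102670998-102671297, minus strand): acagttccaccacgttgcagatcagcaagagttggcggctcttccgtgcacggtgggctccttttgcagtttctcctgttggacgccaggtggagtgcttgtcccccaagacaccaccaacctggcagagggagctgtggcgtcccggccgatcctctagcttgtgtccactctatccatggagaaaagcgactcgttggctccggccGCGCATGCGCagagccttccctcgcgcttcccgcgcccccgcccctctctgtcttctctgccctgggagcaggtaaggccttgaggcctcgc
Atpif1 (chr4:132535365-132535664, minus strand): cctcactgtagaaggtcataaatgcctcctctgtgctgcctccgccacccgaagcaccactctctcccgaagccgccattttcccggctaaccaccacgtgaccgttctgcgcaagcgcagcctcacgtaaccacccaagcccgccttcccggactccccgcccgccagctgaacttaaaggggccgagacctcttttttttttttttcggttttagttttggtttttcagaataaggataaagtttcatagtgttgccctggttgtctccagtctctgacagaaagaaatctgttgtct

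The NRF1 letters occurred in 6 of the 29 members (20.7%) and in 1.95% of all 27025 genes with such a window. Chromosome 18 was left out for the members but not for all genes. For ETS the shares were 9 of 29 (31.0%) and 9.93%, for ERR 2 of 29 (6.90%) and 0.466%, and for YY1 2 of 29 (6.90%) and 1.64%. Any of the 4 was in 14 members (48.3%) and in 13.1% of all genes. The median share of G and C bases was 57% in the members' windows and 52.7% in those of all genes. Its part in these shares was not tested. Of the 14 members with any of the 4, 11 rose with cold in +/+ mice, with a median of 1.45. Of the 15 without, 12 rose, with a median of 1.62, so that the letters did not separate the members that rose from those that did not. A match is only a match of letters.

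Complex IV and V subunits that the list left out (13 genes, 12 tested) were called higher in 10 and lower in 0 with cold in +/+ mice, with a median of 1.49. At 8°C all 12 were lower in HY/HY than in +/+ mice. Cox7a1, the isoform of muscle and brown fat, had the largest change, with 4.08, 7.60 and 8.02 CPM at 30°C and 463, 493 and 468 CPM at 8°C in +/+ mice, and 47.4, 59.4 and 22.8 CPM at 8°C in HY/HY mice. Its log2 change was 6.17 ± 0.47 in +/+ and 2.39 ± 0.41 in HY/HY mice, and it was called in both. Cox6b2, an isoform known from testis, had the smallest, 0.46 in +/+ mice, at 1.05 to 5.57 CPM in all libraries.

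For comparison, 34 of 35 nuclear subunits of complex I rose with cold in +/+ mice (median 1.5) and 31 of 35 were lower in HY/HY than in +/+ mice at 8°C, between 0.39 for Ndufa7 and 2.09 for Ndufb6 in the cold response. The assembly factors of complexes II to V had a smaller median in +/+ mice, 0.87, with 21 of 31 called higher, and 11 of 31 were lower in HY/HY mice at 8°C. Among these, Cox10, which makes haem for complex IV, rose by 1.77, and Surf1, a complex IV assembly protein, had 0.06. Neither list had a member called with cold in HY/HY mice.

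Mitochondrial DNA encodes the remaining subunits of complexes III to V. Its genes took 11.4% to 13.5% of the counts in +/+ mice at 30°C, 9.32% to 16.8% in HY/HY mice at 30°C, 16% to 18% in +/+ mice at 8°C and 12.2% to 12.9% in HY/HY mice at 8°C. In mt-Co1 and mt-Cytb, the partners with the most counts, the +/+ libraries at 8°C were above those of HY/HY mice at 8°C, at log2 differences of -0.52 ± 0.36 and -0.52 ± 0.33 (adjusted p of 0.435 and 0.400 in edgeR's test). Their cold responses in +/+ mice were 0.52 and 0.56, below the 1.52 of the median nuclear member, and were not called. The counts of mt-Co2, mt-Co3, mt-Atp6 and mt-Atp8 scattered widely within groups, mt-Co2 from 2.5 to 1720 CPM, and are not read further.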

How the data were processed

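Levels of RNA were measured by RNA-seq in 12 scWAT libraries, 3 mice in each of 4 groups. Per the methods, the authors trimmed paired 50-base reads, aligned them to mm10 with STAR and used the GENCODE M25 annotation. The deposited tables hold raw counts of read pairs per gene, unnormalised, in an unstranded and 2 stranded columns, and the sense column was used here. Unaligned pairs (25.1% to 28.8%), pairs aligned to several places (26.7% to 32.2%), those outside genes (1.99% to 3.20%) and ambiguous ones (0.93% to 1.10%) were left out.

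The 36 members and all lists were chosen with earlier results of these data known. IDs were matched to symbols for 32589 of 55401 genes. Counts were fitted with edgeR 4.0.16 (R 4.3.3; filterByExpr, TMM, quasi-likelihood, 1 mean per group, 8 residual degrees of freedom), and two-sided p-values were adjusted over 16540 genes by Benjamini-Hochberg. The replicates are separate mice. The fit was also run on simulated counts in which genes changed in the cold +/+ group alone, unlike these data. No call rests on that run. Copies were searched with BLAST 2.17.0 on NCBIM37, an older build. All 36 members, the extremes by cold response in +/+ mice of the complex I, left-out and assembly lists, mtDNA partners, Kdm3a, Ucp1, Acta1, Ckm and Myh4 are named by rule. Alternatives were DESeq2 1.42.0, library totals, mtDNA genes left out of library sizes, other filters, both strands, other libraries in the fit, a replicate block and each library left out.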

Additional observations from a re-analysis of the deposited data

Results flagged for a closer look

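The cold response of HY/HY mice was tested against that of +/+ mice by the interaction term, and 22 members passed at an adjusted p under 0.05 in edgeR's quasi-likelihood test. All values are log2 differences, negative where the response was smaller in HY/HY mice, with 3 libraries in each of the 4 groups. In complex II the members that passed were Sdhb at -1.43 and Sdhd at -1.32. In complex III they were Cyc1 at -1.73, Uqcrc1 at -1.52, Uqcrfs1 at -1.49, Uqcrc2 at -1.32, Uqcrb at -1.28, Uqcrq at -1.27 and Uqcrh at -1.17. Cycs was at -1.72. In complex IV they were Cox5a at -1.97, Cox5b at -1.55 and Cox7b at -1.51. In complex V they were Atp5o at -1.38, Atp5k at -1.36, Atp5j2 at -1.29, Atp5d at -1.25, Atp5a1 at -1.13, Atp5l at -1.12, Atp5h at -1.02, Atp5f1 at -1.01 and Atp5e at -0.96. Groups of 3 libraries are too small for a test of single outlying libraries.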

How the results depend on the processing

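No member's fold change turned direction where it was called, under any alternative. The count of members called with cold in +/+ mice stayed at 31 or 32 throughout. Over all genes 1356 to 1869 rose and 517 to 1515 fell without 1 library, against 1707 and 1132 in the main fit. With library totals 1057 rose and 4080 fell. Between the genotypes at 8°C the count of members ran from 18 to 30 without 1 library, while 301 to 822 of all genes were called lower. For cold in HY/HY mice it was 0, but 0 to 9 without 1 library (9 without HY/HY replicate 3 at 30°C) and 2 with DESeq2. Over all genes 461 rose and 201 fell without that replicate, and 216 and 91 with DESeq2. Between the genotypes at 30°C the count of members was 0. It was 2 without the filter on low counts, 1 with both strands counted, 2 with DESeq2 and 0 to 1 without 1 library (1 without HY/HY replicate 1 at 30°C). The matching counts over all genes, higher and lower, were 284 and 283, 105 and 82, 357 and 307, and 271 and 92. The interaction's 22 became 4 to 29 without 1 library, while 64 to 605 of all genes were called lower. With library totals in place of TMM the median over members was 1.20 with cold in +/+ mice and -0.92 for the interaction, while the median of all genes moved from -0.07 to -0.41 and from 0.04 to 0.25. Relative to all genes the members' medians were 1.59 with TMM and 1.61 with library totals, and -1.17 with either for the interaction, where 43 genes were higher and 188 lower with library totals against 28 and 342. Over members and alternatives, calls at 8°C were lost in 30 cases and gained in 21, and for the interaction lost in 153 and gained in 28. The cause of these changes was not tested.

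The replicate numbers were not treated as pairs: same-numbered libraries of different groups deviated from their group means with correlations of -0.0695 to 0.346, over 0.1 in 11 of 18. With the replicate number as a block, 31 members were called with cold in +/+ mice, 0 in HY/HY mice, 30 between the genotypes at 8°C, 2 at 30°C and 27 for the interaction. In the same order, the block gave 1803 and 1410, 128 and 32, 398 and 795, 214 and 294, and 57 and 469 of all genes higher and lower.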
